A study of Mus musculus with 30 samples.

Results

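The 10 genes described here are the PGC-1 coactivators PPARGC1A and PPARGC1B and the transcription factors and mitochondrial proteins with which they act: the estrogen-related receptors ESRRA and ESRRG, the fatty acid receptors PPARA and PPARD, the nuclear respiratory factors NRF1 and GABPA, the mitochondrial DNA factor TFAM and the mitochondrial deacetylase SIRT3. They were chosen by gene symbol, and all 10 were found among the 21073 genes of the table. Expression was measured by RNA-seq of poly(A) RNA in whole extensor digitorum longus (EDL), a hindlimb muscle made mostly of fast fibres, from female mice of the inbred strain SJL/J. Unimmunized mice (Ctrl), mice given ovalbumin in complete Freund's adjuvant (OVA) and mice in which experimental autoimmune encephalomyelitis was induced with a myelin proteolipid protein peptide in the same adjuvant (EAE) were sampled on day 14 and on day 40, with 5 mice in each of the 6 groups. OVA and EAE mice therefore shared the adjuvant and differed in the antigen, pertussis toxin was not part of the EAE protocol, and the age of the mice was not given in the sources used here. Each mouse gave 1 library, so day 14 and day 40 compare different mice. The reads summed to between about 18025000 and 31375000 per mouse, and all 10 fast fibre markers averaged above 3 RPKM in every group.

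PGC-1 coactivators do not bind DNA themselves. They are recruited by nuclear receptors and by the nuclear respiratory factors, and through these they switch on genes for the respiratory chain, fatty acid oxidation and the copying of mitochondrial DNA. In skeletal muscle PPARGC1A is known as the coactivator induced by contraction, and PPARGC1B as its close relative. ESRRA carries much of the action of both on respiratory chain genes. NRF1 and GABPA are classically placed upstream of TFAM, which packages and transcribes mitochondrial DNA. SIRT3 removes acetyl groups from mitochondrial enzymes and is itself known as a target of PPARGC1A and ESRRA.

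Sequences known to be bound by NRF1, GABP and MEF2 stand in the promoters of some of the genes, and they are shown because NRF1 and GABPA are members of the set and MEF2 factors are known partners of PGC-1. RefSeq promoter windows of mouse build GRCm38, from 250 bases before to 50 bases after each start, held 14 windows for 9 of the 10 genes. All 32851 windows were searched on both strands. The NRF-1 sequence CGCATGCG was present in 1.87% of them, among which were windows of GABPA and PPARA. The GABP sequence CCGGAAG, which reads CTTCCGG on the other strand, was present in 8.86%, among which were windows of GABPA, SIRT3 and TFAM. The MEF2 sequence in capitals under ESRRG below was present in 0.164%, among which was a window of ESRRG. The ERR sequence TCAAGGTCA (0.423% of windows) and the PPAR sequence, AGGTCA repeated after 1 free base (0.0396%), were in none of the 14. Each stretch below is written 5′ to 3′ on the strand of its gene, with the matched letters in capitals.
GABPA, NRF-1 sequence: ctcttggagacactgcactgtaCGCATGCG
PPARA, NRF-1 sequence: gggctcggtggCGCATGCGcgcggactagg
GABPA, GABP sequence: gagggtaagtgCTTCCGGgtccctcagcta
SIRT3, GABP sequence: gtgctcgctcaCTTCCGGcaccgcgggcgc
TFAM, GABP sequence: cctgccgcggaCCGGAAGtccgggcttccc
ESRRG, MEF2 sequence: taaaactttgCTATTTATAGtctacgcccg

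The GABPA stretches lie at chr16:84835094-84835123 and chr16:84835020-84835049 on the plus strand, 8 and 93 bases before the start, where an exon of the oppositely transcribed Atp5j also lies, and the second of them overlaps the 5′ UTR exon of another GABPA transcript. The PPARA stretch lies at chr15:85735735-85735764 on the plus strand, 30 bases before the start, inside the PPARA gene but in no annotated exon. The SIRT3 stretch lies at chr7:140882376-140882405 on the minus strand, 85 bases before the start and within a UTR exon of the neighbouring, oppositely transcribed Psmd13. The TFAM stretch lies at chr10:71238073-71238102 on the minus strand, 47 bases before the start and within a UTR exon of a TFAM transcript. The ESRRG stretch lies at chr1:187608974-187609003 on the plus strand, 22 bases before the start, inside the gene and in no annotated exon. The match was of letters only. Genes that carried one included SIRT3 and PPARA, which fell in EAE on day 14, and TFAM, GABPA and ESRRG, which passed the call in neither day 14 comparison with EAE.

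Levels are given as RPKM, reads scaled to the length of the transcript and to the depth of the library, a scale on which genes of different length can be compared. ESRRA was the most abundant of the 10 genes, with a median of 55.5 RPKM over the 30 mice. SIRT3 (16.0), TFAM (15.3) and PPARD (12.8) followed, and GABPA (7.82), PPARGC1A (6.42), PPARGC1B (4.99), ESRRG (3.62), PPARA (3.47) and NRF1 (2.81) were the lower ones. All 10 were read well above the detection limit, since the mouse with the fewest reads for a gene still had 102 (PPARA) and the median mouse had between 251 (PPARA) and 2687 (ESRRA) reads. The highest mouse was between 1.43 times (NRF1) and 3.87 times (GABPA) the lowest.

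**Figure D1:**
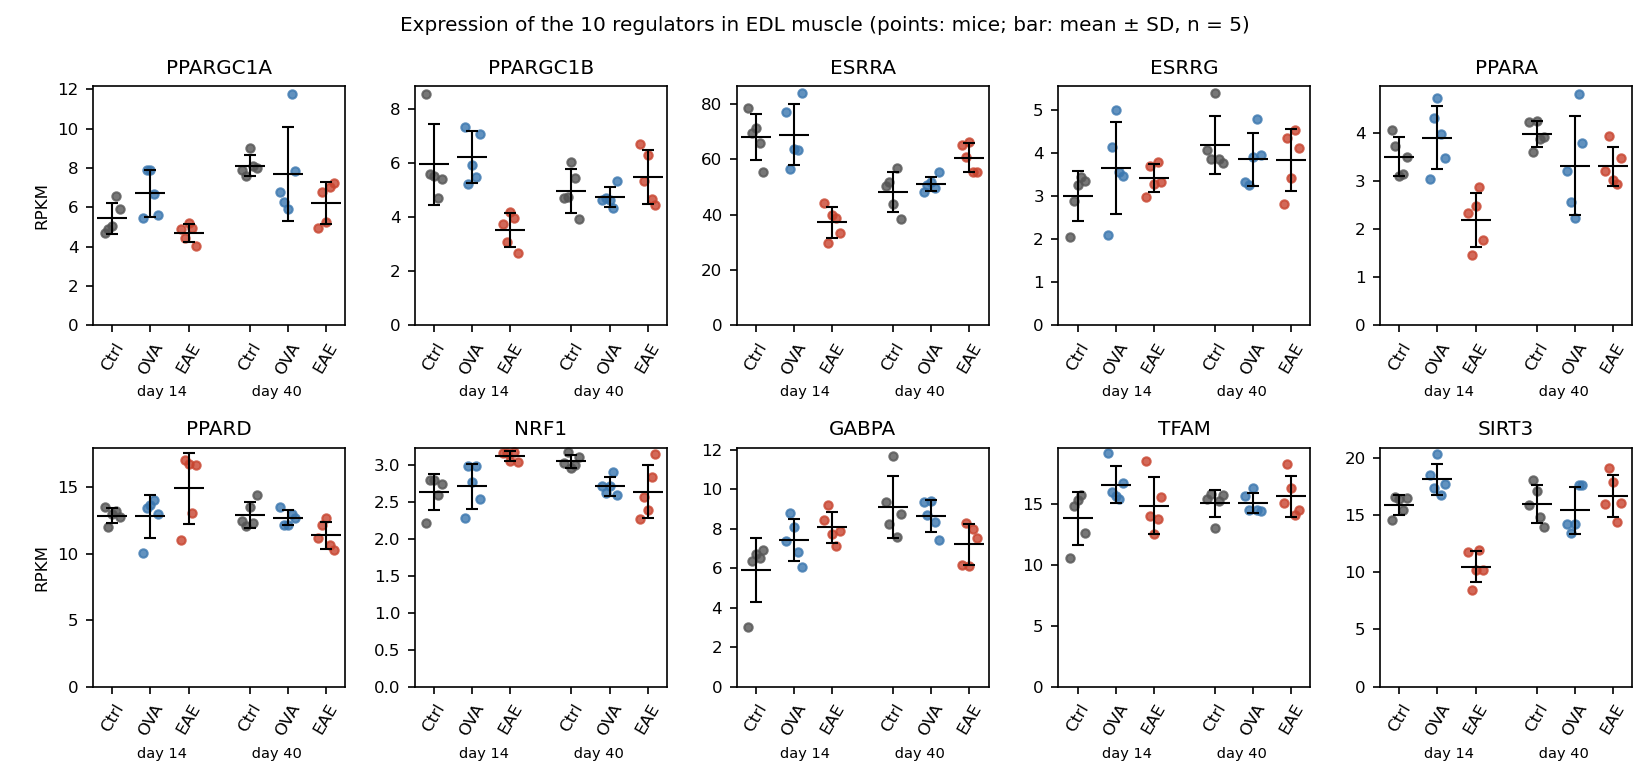
RPKM of each of the 10 genes in every mouse, 1 panel per gene, with the 6 groups along the horizontal axis, 1 point per mouse and a bar at the group mean with its SD. ESRRA, PPARGC1B, PPARA and SIRT3 sit lowest in the EAE mice of day 14. On day 40 the EAE mice overlap Ctrl in each of these genes. They overlap OVA of that day in PPARGC1B, PPARA and SIRT3, and lie above every OVA mouse of that day in ESRRA.

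On day 14, 4 of the 10 genes were lower in EAE muscle than in unimmunized muscle and none was higher. They were ESRRA, PPARGC1B, PPARA and SIRT3, each 1.52 to 1.83 times lower, and the same 4 were lower when EAE was compared with OVA. A gene was counted as called, and is said to have risen or fallen, when its adjusted p was below 0.05 (limma across all genes tested, Benjamini-Hochberg) and its fold change exceeded 1.5. Of all genes tested 26.4% were called in EAE against Ctrl, with 11.8% of all tested lower, and 20.3% in EAE against OVA, with 9.28% of all tested lower. The median log2 difference was -0.05 for the 10 genes and 0.11 for all genes tested against Ctrl, and -0.33 and 0.11 against OVA. Both comparisons use the same 5 EAE mice. Since whole muscle was extracted, fewer cells of a type and less RNA per cell cannot be told apart.

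ESRRA showed the largest difference from Ctrl among the 10 before the correction for exon length described further on, and PPARGC1B after it (-0.87, with ESRRA at -0.86). The 5 Ctrl mice had 78.5, 69.5, 71.3, 65.9 and 55.5 RPKM and the 5 OVA mice 77.2, 56.7, 63.8, 63.5 and 83.9 RPKM. The 5 EAE mice had 44.1, 29.8, 39.8, 39.0 and 33.4 RPKM. Every EAE mouse lay below every Ctrl and every OVA mouse. The log2 fold change was -0.88 (SE 0.13, adjusted p = 0.000112) against Ctrl and -0.89 (SE 0.13, adjusted p = 0.000115) against OVA.

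PPARGC1B fell with ESRRA. Its levels were 8.56, 5.58, 5.52, 4.69 and 5.41 RPKM in Ctrl and 7.34, 5.21, 5.93, 5.49 and 7.09 RPKM in OVA. In EAE they were 3.74, 3.08, 4.19, 3.97 and 2.67 RPKM. The EAE mice were again below all others, and the Ctrl mouse at 8.56 RPKM stood above the other Ctrl mice. The log2 fold change was -0.73 (SE 0.16, adjusted p = 0.00221) against Ctrl and -0.80 (SE 0.16, adjusted p = 0.00137) against OVA.

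PPARGC1A, the coactivator usually named first in muscle, was not called in either comparison. It was read at 4.71, 4.92, 5.05, 6.57 and 5.94 RPKM in Ctrl and at 5.44, 7.92, 7.91, 6.66 and 5.61 RPKM in OVA. In EAE it was read at 4.88, 4.46, 5.21, 4.95 and 4.05 RPKM. The EAE mice at 4.05 and 4.46 RPKM lay below every Ctrl mouse and the others within the Ctrl range, while all lay below every OVA mouse. Against Ctrl the log2 difference was -0.20, with a 95% interval from -0.48 to 0.08 (adjusted p = 0.224). Against OVA it was -0.49 (SE 0.13, adjusted p = 0.00862), a 1.40-fold difference that passed the p threshold and missed the fold threshold.

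PPARA, the receptor that drives fatty acid oxidation genes, fell, whereas its relative PPARD did not. PPARA was read at 4.05, 3.73, 3.10, 3.14 and 3.50 RPKM in Ctrl and at 3.04, 4.30, 4.72, 3.98 and 3.47 RPKM in OVA. In EAE it was read at 2.33, 1.46, 2.47, 2.87 and 1.77 RPKM. No EAE mouse reached the lowest mouse of either control group. PPARA passed the expression filter only through the control group of each comparison, where it was higher (mean 3.50 RPKM in Ctrl and 3.90 in OVA, against 2.18 in EAE). Without the filter 4 of the 10 genes were again lower in both comparisons. The log2 fold change was -0.69 (SE 0.17, adjusted p = 0.00428) against Ctrl and -0.83 (SE 0.17, adjusted p = 0.00153) against OVA. Without EAE replicate 2, at 1.46 RPKM, the difference of PPARA from Ctrl was -0.56 (adjusted p = 0.0127), short of the fold threshold. PPARD, the more abundant receptor of the pair in RPKM, had 13.5, 12.0, 12.9, 13.2 and 12.7 RPKM in Ctrl and 11.1, 17.0, 16.7, 13.1 and 16.6 RPKM in EAE, groups that overlapped. Its log2 difference was 0.19 (95% interval -0.07 to 0.46, adjusted p = 0.215) against Ctrl and 0.21 (adjusted p = 0.206) against OVA.

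ESRRG, the estrogen-related receptor linked to oxidative fibres, ran between 2.05 and 3.45 RPKM in Ctrl, between 2.09 and 4.99 RPKM in OVA and between 2.97 and 3.79 RPKM in EAE. The EAE range lay within that of OVA and overlapped that of Ctrl in part. The log2 difference from Ctrl was 0.20 (95% interval -0.22 to 0.61, adjusted p = 0.417), an interval that does not reach the fall of PPARGC1B. The log2 difference from OVA was -0.05 (95% interval -0.46 to 0.37).

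SIRT3, at the mitochondrial end of the pathway, fell in EAE. Its levels were 14.6, 16.5, 16.4, 15.4 and 16.5 RPKM in Ctrl and 18.5, 17.3, 20.3, 16.7 and 17.7 RPKM in OVA. In EAE they were 11.7, 8.48, 10.2, 11.9 and 10.2 RPKM. The 3 groups of the day did not overlap with each other, with OVA highest and EAE lowest. The log2 fold change was -0.60 (SE 0.10, adjusted p = 0.0002) against Ctrl, a 1.52-fold difference just past the fold threshold, and -0.79 (SE 0.10, adjusted p = 2.36e-05) against OVA. Without EAE replicate 2, at 8.48 RPKM, the difference of SIRT3 from Ctrl was -0.53 (adjusted p = 0.000581), short of the fold threshold. TFAM, the mitochondrial DNA factor, ran from 10.6 to 15.7 RPKM in Ctrl, from 15.3 to 19.2 RPKM in OVA and from 12.5 to 18.5 RPKM in EAE, with a log2 difference from Ctrl of 0.11 (95% interval -0.16 to 0.38, adjusted p = 0.505).

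The nuclear respiratory factors did not follow ESRRA and SIRT3. NRF1 had 2.22, 2.79, 2.80, 2.59 and 2.74 RPKM in Ctrl and 3.16, 3.17, 3.05, 3.18 and 3.04 RPKM in EAE. Every EAE mouse was above every Ctrl and OVA mouse, yet the log2 difference was only 0.24 (SE 0.11, adjusted p = 0.0859) against Ctrl and 0.20 (adjusted p = 0.168) against OVA. The expression filter asked for a mean above 3 RPKM in a compared group. NRF1 passed it on day 14 only through EAE, where it was highest (3.12 RPKM, against 2.63 in Ctrl and 2.71 in OVA). GABPA, the DNA-binding subunit of GABP, had 3.02, 6.40, 6.70, 6.54 and 6.95 RPKM in Ctrl and 8.47, 9.20, 7.72, 7.13 and 7.91 RPKM in EAE. The log2 difference of GABPA from Ctrl was 0.50 (SE 0.19, adjusted p = 0.0395), a 1.41-fold difference that missed the fold threshold, and 1 Ctrl mouse stood well below the other Ctrl mice. Without the 3 mice described further on it was 0.26 (adjusted p = 0.0851).

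Counted by separation, 4 of the 10 genes were lower in every EAE mouse than in every Ctrl mouse and 2 were higher, against 11.0% and 21.2% of all genes tested. Against OVA 5 were lower and 1 was higher, against 8.20% and 18.0%. PPARGC1A was the additional lower gene against OVA. NRF1, among the higher genes in both comparisons, passed the expression filter only through EAE. PPARA, among the lower genes in both, passed it only through Ctrl or OVA.

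**Figure D2:**
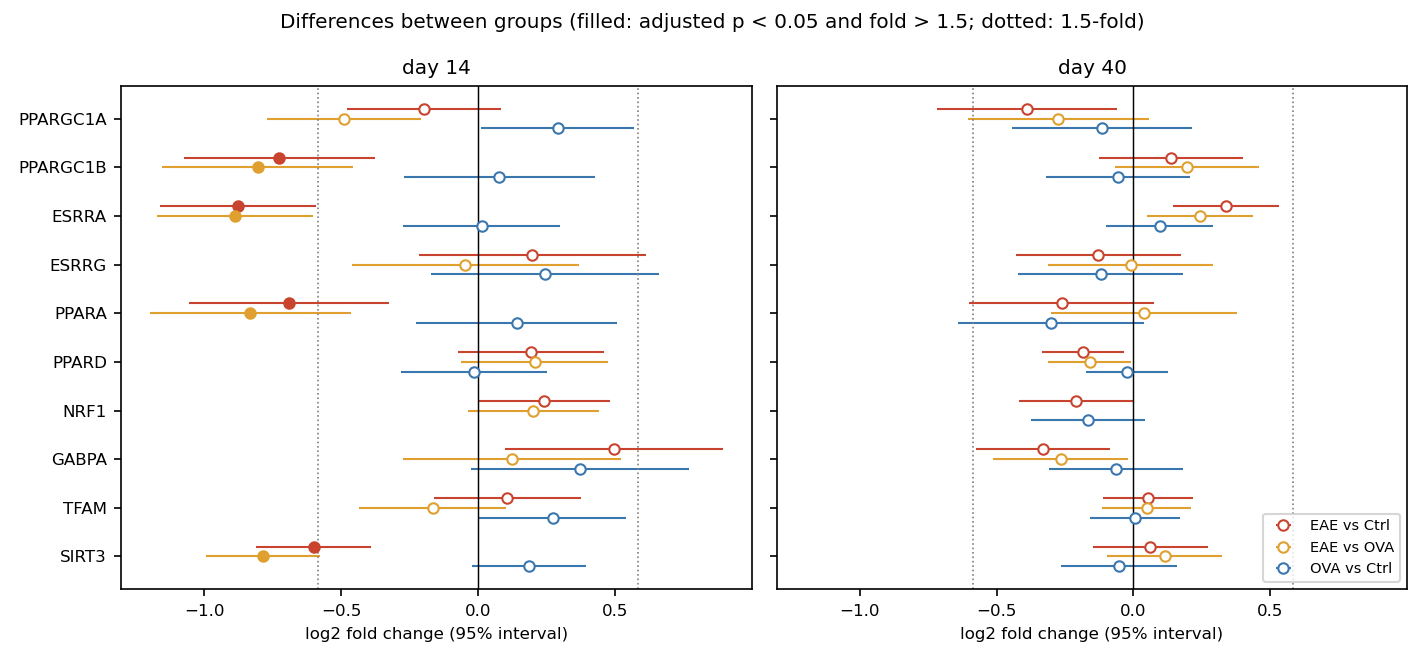
Log2 fold change of each of the 10 genes (horizontal axis) for EAE against Ctrl, EAE against OVA and OVA against Ctrl, 1 panel per day, with points at the estimates (filled where called) and lines for the 95% intervals. On day 14 ESRRA, PPARGC1B, PPARA and SIRT3 lie at -0.60 or below in both comparisons, and on day 40 no gene passed the call. NRF1 has no point where it was below the expression filter.

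OVA immunization alone moved none of the genes past the call. On day 14, 0 of the 9 genes tested were called between OVA and Ctrl (limma), where 0.142% of all genes were, and 2 of the 9, PPARGC1A and TFAM, had an unadjusted p below 0.05, as had 9.69% of all genes. Between OVA and Ctrl PPARGC1A differed by 0.29 on the log2 scale (SE 0.13, adjusted p = 0.493) and TFAM by 0.27 (SE 0.13, adjusted p = 0.505). SIRT3 was higher in every OVA mouse than in every Ctrl mouse, as were 1.09% of all genes, with a log2 difference of 0.19 (adjusted p = 0.574). NRF1 was below the expression filter in this comparison, and an exact permutation test of its 5 against 5 mice, two-sided, gave p = 0.659.

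Genes known to act on PGC-1 or beside it moved in both directions on day 14. Of 29 listed regulators and partners 26 were tested in EAE against Ctrl, of which 5 rose and 3 fell, where 14.6% of all genes rose and 11.8% fell. Their median log2 difference was 0.22, with 0.11 for all genes. PERM1, a muscle protein induced by PGC-1 and ERR that in turn promotes their target genes, fell from 75.4 ± 9.12 RPKM (SD, n = 5) in Ctrl to 25.7 ± 12.5 RPKM (SD, n = 5) in EAE, with 103 ± 20.0 RPKM in OVA. Its log2 fold change was -1.69 (SE 0.27, adjusted p = 0.000157) against Ctrl and -2.13 (SE 0.27, adjusted p = 2.59e-05) against OVA, and the EAE mice lay below all others. PRKAG1, a subunit of the energy sensor AMPK, fell by 0.90 on the log2 scale, from 27.3 to 14.6 RPKM. RXRG, a partner receptor of the PPARs, fell by 0.88, from 18.3 to 10.3 RPKM.

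The partners that rose included transcription factors of the MEF2 family, which are known to drive the PPARGC1A promoter in muscle. MEF2C rose from 82.6 ± 6.74 to 170 ± 19.0 RPKM (SD, n = 5 each), or by 1.03 on the log2 scale (SE 0.10, adjusted p = 2.36e-06), and it was also higher than in OVA, by 0.75 (adjusted p = 3.5e-05). MEF2A rose by 2.00 (SE 0.58, adjusted p = 0.0105), from 9.13 ± 5.40 to 29.9 ± 10.7 RPKM, and NRIP1, a corepressor of ERR and PPAR target genes, by 2.23 (SE 0.61, adjusted p = 0.00729), from 1.22 ± 1.01 to 4.83 ± 1.96 RPKM. MEF2A and NRIP1 varied widely among the Ctrl mice, and without replicate 1 of Ctrl their log2 fold changes were 1.40 and 1.69. NRIP1 passed the expression filter against Ctrl only through EAE. PPRC1, the third member of the PGC-1 family, rose by 0.74 (SE 0.17, adjusted p = 0.00282), from 3.82 to 6.44 RPKM. Against OVA the 27 genes tested held 1 that rose, MEF2C, and 4 that fell, which were PERM1, RXRG, PRKAG1 and PRKAG2. Of all genes 11.0% rose and 9.28% fell in that comparison.

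Of 22 tested targets of PGC-1, ERR and PPAR, 9 fell and none rose in EAE against Ctrl on day 14, where 11.8% of all genes fell. The other 13 were not called, 4 of the 22 were above 0, and the median log2 difference was -0.53. Against OVA 14 fell and none rose, where 9.28% of all genes fell, with a median of -0.86 and all 22 below 0. CKMT2, the mitochondrial creatine kinase of muscle, fell from 1448 ± 289 RPKM in Ctrl to 344 ± 85.0 RPKM in EAE (SD, n = 5 each), which is -2.09 on the log2 scale (SE 0.19, adjusted p = 1.26e-06). FNDC5, the precursor of irisin, fell by 1.32 on the log2 scale, from 48.8 to 19.2 RPKM. LDHB, the lactate dehydrogenase subunit of oxidative muscle, fell by 1.19, from 142 to 63.7 RPKM, and CYCS, cytochrome c, fell by 1.09, from 23.8 to 11.1 RPKM. In each of these 4 targets every EAE mouse was below every Ctrl mouse. ANGPTL4, a PPAR target, fell by 1.54 against OVA (SE 0.40, adjusted p = 0.00631).

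The nuclear-encoded subunits of complex IV, the cytochrome c oxidase, were lower together. All 13 were below 0 against Ctrl on day 14, 9 of them fell, where 11.8% of all genes did, and the median was -0.79. COX7A1, the muscle isoform of subunit 7A, fell from 977 ± 203 to 313 ± 78.5 RPKM, a log2 fold change of -1.66, and COX7C, COX5A and COX5B fell by 1.07, 1.01 and 0.97. Against OVA 9 of the 13 fell, where 9.28% of all genes did, with a median of -0.74. By contrast, of 13 genes tested for the transcription and replication of mitochondrial DNA, 0 were called against Ctrl (limma), with a median of 0.09, and 0 of 12 were called against OVA. Of 6 sirtuins tested against Ctrl 2 fell, SIRT3 and the nuclear SIRT7 (log2 fold change -0.60), and against OVA only SIRT3 fell.

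**Figure D3:**
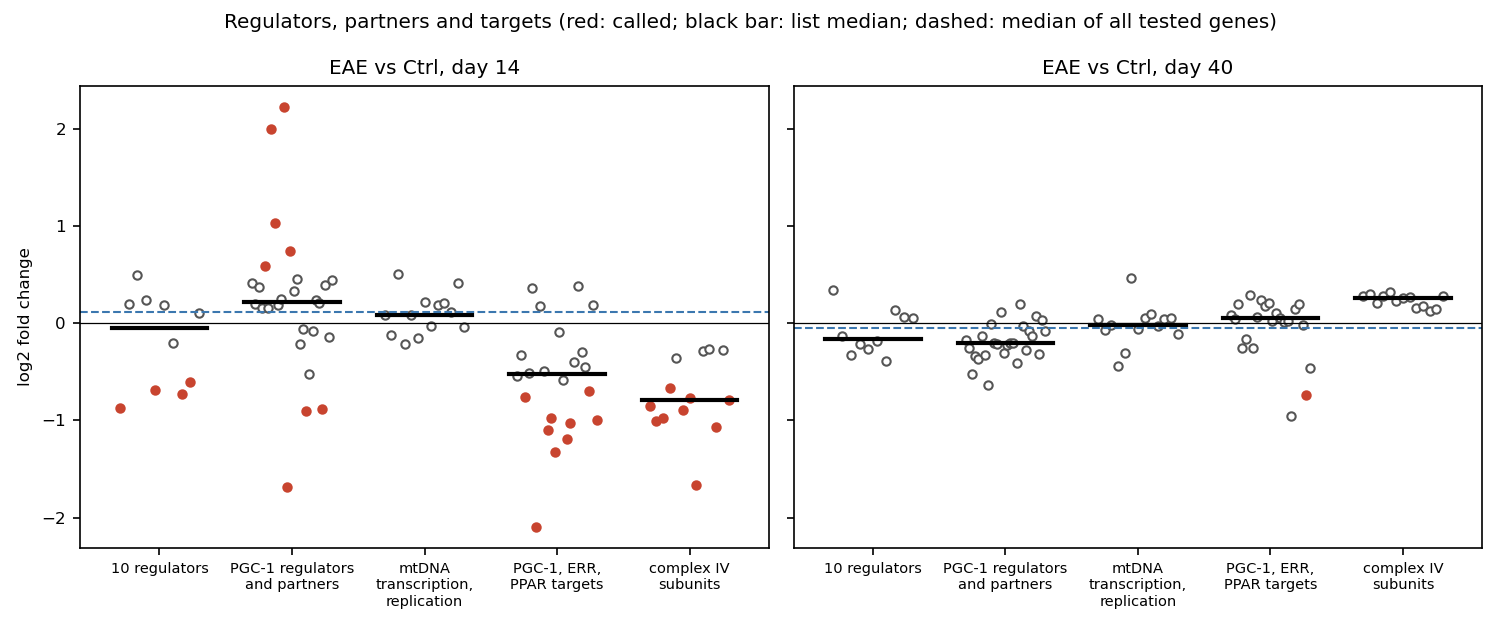
Log2 fold change (vertical axis) between EAE and Ctrl of every tested gene in each list, for day 14 and day 40, 1 point per gene with called genes in red, a black bar at the list median and a dashed line at the median of all tested genes. On day 14 the medians of the targets (-0.53) and of complex IV (-0.79) lie below 0 against Ctrl while that of the mitochondrial DNA genes is 0.09.

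Summed levels of fibre and cell type markers differed between the groups to unequal degrees, some of them with overlapping ranges. The summed level of 10 fast fibre markers ran from 55186 to 73158 RPKM in the EAE mice of day 14 and from 77751 to 119553 RPKM in Ctrl, without overlap, while the OVA mice, from 71011 to 107402 RPKM, overlapped EAE. Of these 10 markers 2 fell against Ctrl, PVALB and TNNC2, and 2 were above 0, with a median log2 difference of -0.16. The summed level of 8 slow fibre markers ran from 1209 to 2002 RPKM in EAE and from 1871 to 3070 RPKM in Ctrl. Neutrophil markers, 7 genes, summed to 3.82 to 10.5 RPKM in Ctrl, 66.4 to 232 RPKM in OVA and 216 to 402 RPKM in EAE, where 5 of the 7 exceeded 3 RPKM. Of the 5 neutrophil markers tested between EAE and OVA, 1 rose, S100A8, and 3 were below 0, with a median log2 difference of -0.86. Summed fibroblast markers (6 genes) were 306 to 478 RPKM in EAE against 774 to 1370 RPKM in Ctrl, macrophage markers (8 genes) 70.7 to 127 against 133 to 208 RPKM, and erythrocyte markers (5 genes) 26.5 to 189 against 189 to 684 RPKM. Adipocyte markers (6 genes) were 306 to 485 against 457 to 686 RPKM and endothelial markers (7 genes) 71.5 to 112 against 92.6 to 126 RPKM, while Schwann cell markers (6 genes), at 46.6 to 73.9 RPKM in EAE, spanned the Ctrl range of 64.7 to 71.0 RPKM. No marker averaged 0 in any group. Their part in the differences of the 10 genes was not tested.

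On day 40 none of the 10 genes was called between EAE and Ctrl. The mean of ESRRA was higher in EAE and that of PPARGC1A lower, neither past the call. Over all genes 0.460% were called (40 genes, with 2423 at an unadjusted p below 0.05), and 5 of the 10 had an unadjusted p below 0.05 (limma), as had 27.9% of all genes. The median log2 difference was -0.16 for the 10 genes and -0.05 for all genes. ESRRA had 50.3, 51.8, 43.8, 57.0 and 38.5 RPKM in Ctrl and 65.4, 60.8, 66.3, 55.5 and 55.4 RPKM in EAE, groups that overlapped at 1 Ctrl mouse. Its log2 difference was 0.34 (95% interval 0.14 to 0.53, adjusted p = 0.0576).

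PPARGC1A had 7.88, 7.57, 9.01, 8.11 and 7.98 RPKM in Ctrl and 4.94, 6.76, 5.23, 7.01 and 7.23 RPKM in EAE on day 40. All EAE mice were below all Ctrl mice, as in 4.51% of all genes, and the log2 difference was -0.39 (95% interval -0.72 to -0.06, adjusted p = 0.128). GABPA was at 9.13 ± 1.58 RPKM in Ctrl and 7.22 ± 1.03 RPKM in EAE (SD, n = 5 each) and differed by -0.33 on the log2 scale (adjusted p = 0.0995). PPARD was at 12.9 ± 0.976 and 11.4 ± 1.00 RPKM (-0.18, adjusted p = 0.118) and NRF1 at 3.05 ± 0.0871 and 2.64 ± 0.357 RPKM (-0.21, adjusted p = 0.175). NRF1, 1 of the genes with an unadjusted p below 0.05 (limma), passed the expression filter in this comparison only through Ctrl, where it was higher. PPARGC1B, PPARA, SIRT3, ESRRG and TFAM had adjusted p-values between 0.282 and 0.701. The 95% intervals of PPARGC1B (-0.13 to 0.40) and SIRT3 (-0.15 to 0.27) did not reach their day 14 differences.

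Against OVA, 0 of the 9 genes tested were called on day 40, with 3 at an unadjusted p below 0.05 (limma), where 0.209% of all genes were called and 17.4% had such a p. ESRRA was at 48.4, 50.9, 51.7, 49.5 and 55.3 RPKM in OVA, all below the EAE mice, as in 0.977% of all genes, with a log2 difference of 0.24 (adjusted p = 0.195). PPARGC1A in OVA ran from 5.89 to 11.8 RPKM and overlapped EAE (-0.27, adjusted p = 0.369). NRF1, below the filter, gave p = 0.619 in the exact permutation test. OVA and Ctrl differed on day 40 in 0 of the 10 genes (limma, 0 at an unadjusted p below 0.05) and in 0% of all genes (3.12% at an unadjusted p below 0.05). NRF1 was lower in every OVA mouse than in every Ctrl mouse of that day, as were 0.391% of all genes, with a log2 difference of -0.17 (adjusted p = 0.999). It passed the expression filter in this comparison only through Ctrl.

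Of the lists, a single gene was called on day 40, against Ctrl. UCP3, a mitochondrial carrier induced by fatty acids, fell from 51.4 ± 8.95 RPKM in Ctrl to 31.0 ± 6.45 RPKM in EAE, a log2 fold change of -0.73 (SE 0.15, adjusted p = 0.0236). Its call was lost under 7 of 22 alternatives, which were all 30 mice in 1 model (adjusted p = 0.306), only the compared groups (0.0592), the replicate block (0.0706), and leaving out Ctrl replicate 3 (0.0683) or 5 (0.0537) or EAE replicate 3 (0.0611) or 5 (0.0515), with the log2 fold change of UCP3 at -0.64 or below in each. All 13 complex IV subunits were above 0 with a median of 0.26 and none was called (limma), and after a correction for transcript length the median was 0.13. The targets had a median of 0.05, which became -0.06 under quantile normalization.

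Between day 14 and day 40 the 4 genes that were low in EAE on day 14 rose in EAE muscle, and none of the 4 rose in Ctrl or OVA. The EAE mice of day 14 whose low values set these 4 genes apart are also the baseline here. The rise is therefore not independent of the day 14 differences. In EAE 4 of the 10 rose and none fell, where 8.36% of all genes rose and 12.7% fell. SIRT3 rose by 0.67 on the log2 scale (SE 0.10, adjusted p = 3.23e-06), from 10.5 ± 1.39 to 16.7 ± 1.83 RPKM, and ESRRA by 0.71 (SE 0.12, adjusted p = 1.25e-05), from 37.2 ± 5.65 to 60.7 ± 5.21 RPKM (SD, n = 5 each). PPARGC1B rose by 0.62 (SE 0.15, adjusted p = 0.00109), from 3.53 ± 0.634 to 5.49 ± 0.984 RPKM, and PPARA by 0.61 (SE 0.17, adjusted p = 0.00393), from 2.18 ± 0.562 to 3.31 ± 0.403 RPKM. Here PPARA passed the expression filter only through day 40, where it was higher. In each of these 4 every EAE mouse of day 40 was above every EAE mouse of day 14, as in 10.2% of all genes. PPARGC1B and PPARA were near the fold threshold. PPARGC1B was at 0.58 and PPARA at 0.48 without EAE day 14 replicate 2, and at 0.53 and 0.55 without EAE day 14 replicate 5. Without EAE day 40 replicate 1 or 3 PPARGC1B was at 0.55 or 0.57, and without EAE day 40 replicate 2 PPARA was at 0.55. PPARD (-0.37, adjusted p = 0.00359), PPARGC1A (0.39, adjusted p = 0.0333) and NRF1 (-0.24, adjusted p = 0.0318) passed the p threshold and missed the fold threshold. NRF1 passed the expression filter between the days in EAE only through day 14, where it was higher.

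The unimmunized mice also differed between the days. GABPA rose by 0.66 (SE 0.16, adjusted p = 0.00605), from 5.92 ± 1.64 to 9.13 ± 1.58 RPKM, the only 1 of the 10 called in Ctrl, where 9.37% of all genes were. Without the 3 mice described further on the difference of GABPA was 0.44 (adjusted p = 0.0162), and without Ctrl day 40 replicate 3 it was 0.57 (adjusted p = 0.0284). PPARGC1A differed by 0.58 (95% interval 0.27 to 0.88, adjusted p = 0.00795), a 1.49-fold difference with every day 40 mouse above every day 14 mouse, as in 6.73% of all genes. Its call was gained without Ctrl day 14 replicate 4 (0.65) or 5 (0.61) or Ctrl day 40 replicate 1 (0.59) or 2 (0.60). ESRRA differed by -0.50 (SE 0.12, adjusted p = 0.00438) and ESRRG by 0.48 (SE 0.17, adjusted p = 0.0394). In OVA 0 of 9 genes were called (3.97% of all genes), 3 of the 9 having an unadjusted p below 0.05 (limma), as had 24.6% of all genes, and ESRRA differed by -0.42 (SE 0.12, adjusted p = 0.0218). NRF1 in OVA gave p = 0.952 in the exact permutation test.

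The change of the EAE difference between the days was tested directly as an interaction, which again includes the same EAE mice of day 14. Relative to Ctrl, ESRRA (1.21, SE 0.16, adjusted p = 2.23e-06), PPARGC1B (0.86, SE 0.21, adjusted p = 0.00167) and SIRT3 (0.66, SE 0.14, adjusted p = 0.000449) were called as moving up and GABPA (-0.83, SE 0.23, adjusted p = 0.00454) as moving down, so that 3 of 10 moved up and 1 down where 11.7% and 20.9% of all genes did, 32.7% together. GABPA was near level in EAE between the days (-0.17, adjusted p = 0.406) and rose in Ctrl (0.66). With the correction for exon length described further on GABPA was at -0.44 and SIRT3 at 0.51 in this interaction, and both calls were lost. For ESRRA the interaction holds both the lower level of EAE on day 14 and the lower level of Ctrl on day 40. For PPARA the change relative to Ctrl was 0.43 (95% interval -0.06 to 0.92, adjusted p = 0.137). Relative to OVA, ESRRA (1.13), PPARGC1B (1.00), SIRT3 (0.90) and PPARA (0.87) were called, with adjusted p-values from 7.13e-06 to 0.00595 and 21.8% of all genes called, 8.16% as moving up and 13.7% as moving down. PPARGC1A was not called in either, with changes of -0.19 (95% interval -0.62 to 0.24) and 0.22 (95% interval -0.22 to 0.65). Between OVA and Ctrl 0 of the 10 and 0% of all genes were called, 823 genes (9.30%) but none of the 10 being at an unadjusted p below 0.05 (limma).

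The lists moved unevenly in EAE between the days. Of the 27 regulators and partners tested 3 rose and 4 fell, near the shares of all genes, of which 8.36% rose and 12.7% fell. Of 13 mitochondrial DNA genes 0 were called (limma), with a median of -0.13, beside -0.11 for all genes. PERM1 rose by 1.76 (SE 0.22, adjusted p = 3.22e-07) between the days, from 25.7 to 78.9 RPKM, and CKMT2 by 1.82 (SE 0.17, adjusted p = 1.17e-09), while MEF2C, PPRC1, MEF2A and NRIP1 fell by 0.68, 0.65, 1.21 and 1.90. Of 21 targets tested 8 rose and none fell, with a median of 0.53. Complex IV behaved differently by group. In EAE 1 of the 13 subunits rose, COX7A1, whereas 10 fell in Ctrl and 9 in OVA, and the median was -0.67 in Ctrl. Of all genes, 21.1% were called in EAE, 9.37% in Ctrl and 3.97% in OVA, rises and falls together. The Ctrl count was 3 after the correction for transcript length and 6 without the 3 mice that stood apart. In OVA the difference between the days also moved with transcript length over all genes (Spearman's rho 0.45).

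Transcript length moved with many of these differences. Across all genes tested, Spearman's rho between the log2 difference and the exon length was 0.31 for EAE against Ctrl on day 14, 0.22 for EAE against OVA on day 14, -0.58 for EAE against Ctrl on day 40, and 0.60 for day 40 against day 14 in Ctrl. The 10 genes differ in exon length, from 1724 bases for SIRT3 and 2242 for ESRRA to 5680 for ESRRG and 6464 for PPARGC1A. In addition, replicate 1 of Ctrl, OVA and EAE on day 14 stood apart from the other mice, with median absolute deviations from their group of 0.345, 0.312 and 0.261 on the log2 scale, where no other mouse exceeded 0.247.

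When the length trend was removed from each mouse, the calls of ESRRA (-0.86), PPARGC1B (-0.87) and PPARA (-0.81) in EAE against Ctrl on day 14 remained, and SIRT3 (-0.52, adjusted p = 0.0012) missed the fold threshold. PPARGC1A shifted downward the most of the 10 in that comparison. Its difference became -0.50 (adjusted p = 0.000434) against Ctrl and -0.71 (adjusted p = 2.84e-05) against OVA, where it was called, and its rise between the days in EAE became 0.60 (adjusted p = 0.000205), also called. The difference of PPARGC1A between EAE and Ctrl on day 40 shrank to -0.18 (adjusted p = 0.484), and that between the days in Ctrl to 0.28 (adjusted p = 0.0985). NRF1 moved from 0.24 to -0.02 against Ctrl and GABPA from 0.50 to 0.26 (adjusted p = 0.121). GABPA between the days in Ctrl was 0.42 (adjusted p = 0.0114), past the p threshold alone. The origin of the trend was not tested.

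**Figure D4:**
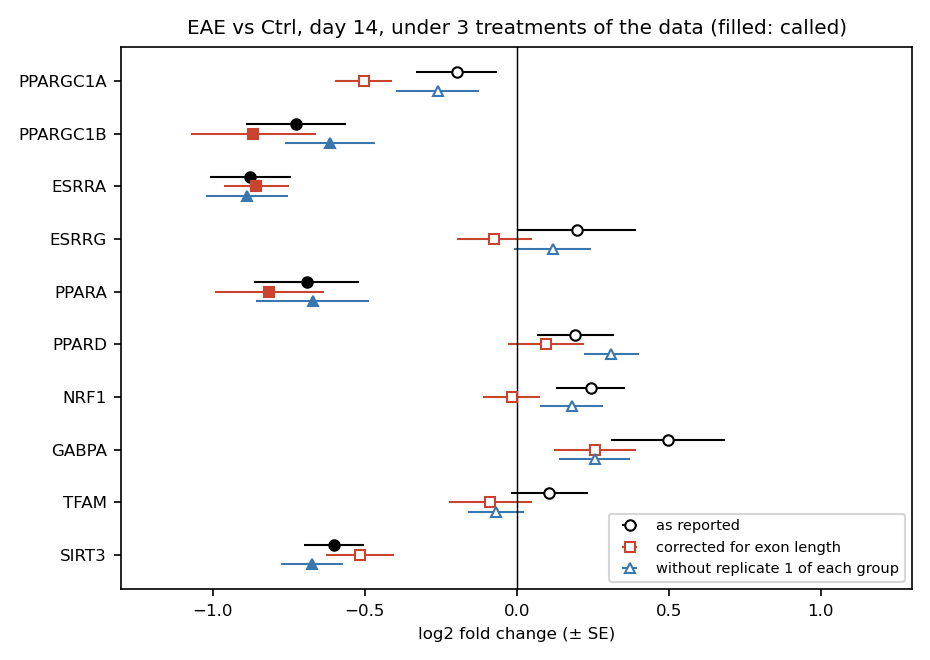
Log2 fold change (horizontal axis) of each of the 10 genes before and after removal of the trend with exon length, and without replicate 1 of each group, for EAE against Ctrl on day 14, with lines for the SE and filled points where called. PPARGC1A moves from -0.20 to -0.50 against Ctrl, whereas ESRRA moves from -0.88 to -0.86.

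Among the 10 genes, levels moved together in pairs over the 30 mice, which share their libraries, depth and length trend. PPARGC1B and ESRRA had a Pearson r of 0.87 on the log2 scale, and 0.70 after the group means were removed. PPARA and SIRT3 had 0.81 and 0.60, and PPARGC1A and ESRRG 0.69 and 0.71. In these values the coactivators did not move together, since PPARGC1A and PPARGC1B had 0.08, and -0.34 within groups, and PPARGC1A and ESRRA had 0.03 and -0.36. NRF1 ran opposite to PPARGC1B, at -0.75 and -0.72. None of these r was computed after the correction for exon length. PPARGC1A (6464 bases) and NRF1 (5422) have longer exons than PPARGC1B (3735), so likeness apart from the length trend was not tested.

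Over 9047 expressed genes and the same 30 mice, those most like ESRRA were UQCRC1 (r = 0.97), ATP5G3 (0.97) and SDHB (0.96), subunits of complex III, ATP synthase and complex II. Those most like PPARGC1B were GNG11 (0.90), DUSP23 (0.89) and METRN (0.89). For PPARGC1A they were CCDC50 (0.83), CREB1 (0.83) and GIMAP8 (0.82), of which CREB1 encodes a factor known to act on the PPARGC1A promoter. For ESRRG they were ZYG11B, PDE7B and ETL4, each at 0.88.

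In the order of the 6 group means, EAE of day 14 was lowest for PPARGC1A, PPARGC1B, ESRRA, PPARA and SIRT3 and highest for PPARD and NRF1. For PPARGC1A the order ran from 4.71 ± 0.457 RPKM in EAE of day 14 through Ctrl (5.44 ± 0.788) of that day, EAE of day 40 (6.23 ± 1.07), OVA of day 14 (6.71 ± 1.20) and OVA of day 40 (7.72 ± 2.39) to Ctrl of day 40 (8.11 ± 0.541), and each neighbour in this order overlapped the next. For ESRRA it ran from 37.2 ± 5.65 RPKM in EAE of day 14 through Ctrl (48.3 ± 7.21), OVA (51.2 ± 2.65) and EAE (60.7 ± 5.21) of day 40 to Ctrl (68.1 ± 8.42) and OVA (69.0 ± 11.2) of day 14. The EAE and OVA groups of day 40 were the only neighbours in the ESRRA order without any overlap between mice, and the highest EAE mouse of day 14 was above the lowest Ctrl mouse of day 40.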

How the data were processed

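The table deposited by the authors holds 1 value per gene and mouse, made from paired reads aligned with Subread to mouse build mm10, counted with featureCounts on RefSeq transcripts and scaled to RPKM. The labels call the values RPKM, but the deposited values are log2(RPKM + 1) with 0.0001 for no read: read this way, 99.9% of 11865 low values were whole multiples of 1 read, against 34.9% as plain RPKM. They were turned back into RPKM. Poly(A) libraries were prepared with a kit that keeps strand, and whether strand was used in counting was not given. Totals per mouse (about 18025000 to 31375000 reads, median 21465000) were estimated from the value of 1 read.

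Differences were tested with limma 3.58.1 in R 4.3.3 on log2(RPKM + 0.1), which understates changes of low genes. The 15 mice of a day shared 1 model, and all 30 mice 1 model for differences between days and interactions. Genes needed a mean above 3 RPKM in a compared group, and a call an adjusted p below 0.05 over all genes tested and a fold change above 1.5. The limma p-values set a difference of group means against the spread between mice. That spread was estimated within all groups of the model and moderated across genes. Single values below the filter were tested by exact permutation with SciPy 1.17.1, where the smallest p possible with 5 against 5 mice is 0.00794. The steps were tested on simulated data. Exon lengths and annotated features came from GENCODE M21 on GRCm38, promoter sequences from RefSeq on the same build, and PPARGC1B had no window. Tables and figures used Python 3.11.15, pandas 2.3.3 and matplotlib 3.10.9.

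All 10 genes were named. From each other list the called genes, at most 4 in each direction by size of the log2 fold change, were named in each comparison, and the 3 genes most correlated with PPARGC1A, PPARGC1B, ESRRA and ESRRG. The genes and lists were chosen with earlier results of these data known. The correction for exon length and the removal of 3 mice were chosen after seeing the data.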

Additional observations from a re-analysis of the deposited data

Results flagged for a closer look

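In 60 sets of 5 mice (10 genes in 6 groups), 5 held a mouse far from the others by Dixon's criterion, where chance gives about 1 in 20. They were PPARGC1B in Ctrl of day 14 (8.56 RPKM, above the others), GABPA in Ctrl of day 14 (3.02 RPKM, below), PPARD in OVA of day 14 (10.0 RPKM, below), ESRRG in Ctrl of day 40 (5.39 RPKM, above) and TFAM in Ctrl of day 40 (13.0 RPKM, below). The first 3 were each replicate 1 of its group, the mice whose libraries stood apart across all genes.

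The EAE difference changed between the days in 8 tests of the interaction (limma across all genes). Relative to Ctrl the log2 changes were 1.21 for ESRRA, 0.86 for PPARGC1B, 0.66 for SIRT3 and -0.83 for GABPA. Relative to OVA they were 1.13 for ESRRA, 1.00 for PPARGC1B, 0.90 for SIRT3 and 0.87 for PPARA. The EAE mice are the same in both sets. After the correction for exon length GABPA was at -0.44 and SIRT3 at 0.51 relative to Ctrl, both short of the fold threshold, and PPARA at 0.63 was called.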

How the results depend on the processing

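Of the 10 genes, 4 were called in EAE against Ctrl on day 14, and 2 with a pseudocount of 1 (PPARA at -0.52 and SIRT3 at -0.56 missed the fold threshold) or without EAE replicate 2, with 2 to 4 when each mouse was left out in turn. In EAE between the days the count was 4, and it was 7 without the fold threshold, 2 with a pseudocount of 1, and 2 to 4 leaving out each mouse, with 2 without EAE day 14 replicate 2 or 5. In Ctrl between the days it was 1, and it was 4 without the fold threshold, 2 with a pseudocount of 0.01, and 0 with a pseudocount of 1, with quantile normalization, with the correction for exon length or without the 3 mice that stood apart. It was 0 to 2 leaving out each Ctrl mouse, with 0 without day 14 replicate 1 or day 40 replicate 3 and 2 without day 14 replicate 4 or 5 or day 40 replicate 1 or 2. In OVA between the days it was 0, and 1 without the fold threshold. NRF1 reversed with the correction for exon length, to -0.016 in EAE against Ctrl on day 14 and to -0.043 in Ctrl between the days. Of 2840 values of single genes under the alternatives, 2796 stayed on their side of the call (82 of these, not called, changed sign), 22 lost and 20 gained the call and 2 reversed. Most of the 2840 belong to differences that were not called to begin with. The 22 losses all fall on the few that were, so the total says little about how stable the calls are.

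Between groups of the same day, correlations of mice with the same replicate number ran from -0.73 to 0.70 with a median of -0.07. Those of mice with other numbers ran from -0.74 to 0.76 with a median of -0.006. On day 14, however, replicate 1 of Ctrl, OVA and EAE all stood apart, and whether these mice shared a batch was not tested. With the replicate block the members called were again 4 against Ctrl and 4 against OVA on day 14, 1 in Ctrl and 4 in EAE between the days.

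Over all genes, 2318 were called in EAE against Ctrl on day 14 (1282 higher and 1036 lower), 979 higher and 1246 lower with median-of-ratios scaling, 961 and 1159 with the length correction, 4195 in all without the fold threshold and 3569 without the filter. EAE against OVA on day 14 had 957 higher and 805 lower, 730 and 994 with median-of-ratios scaling, and OVA against Ctrl had 12 in all, 36 with all 30 mice, 32 without the filter and 5 to 11 leaving out each mouse. In OVA between the days 343 were called and 806 without the fold threshold, and in EAE 1834 and 4270. The call counts of day 40 were fragile. For EAE against Ctrl they were 40, and 1 with the replicate block, 0 with all 30 mice, 14 with the length correction, 229 without the fold threshold and 1 to 202 leaving out each mouse. For EAE against OVA they were 18, and 0 with the block and 2 to 22 leaving out each mouse. In Ctrl between the days 823 were called, 413 with the length correction, 347 without the 3 mice and 309 to 1295 leaving out each mouse. The median-of-ratios scaling moved the median of all genes in EAE against Ctrl on day 14 from 0.11 to 0.02. In EAE against Ctrl on day 14 the medians of the targets (-0.55 to -0.65) and of complex IV (-0.61 to -0.88) stayed below 0 under median-of-ratios scaling, quantile normalization, the length correction and removal of the 3 mice, where 9 to 11 targets and 7 to 9 complex IV subunits fell. Of the regulators and partners 3 rose and 4 fell with the length correction. Depth limits PPARA most, with 102 reads in its lowest mouse.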
